A study of Mus musculus with 10 samples.

Results

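Fibroblast identity genes are genes by which fibroblasts, the cells that build the matrix of connective tissue, are told from other cells and from one another. The 10 genes described here, Pi16, Thy1, Cd34, Pdgfra, Pdgfrb, Dpt, Cd81, Cd55b, Twist1 and Tcf21, were taken by name from the deposited table, in which 32132 genes had a count in at least 1 library. All 10 had a row and all 10 passed the filter on low counts that left 19615 genes for testing. The colons came from adult wild-type C57BL/6 mice with colitis, induced with 3% dextran sulfate sodium (DSS) in the drinking water for 7 days. Each day 5 of them received an intravenous injection of phosphate-buffered saline (PBS), 200 ul for every 20 g, and 5 received 4-HDHA, a hydroxylated docosahexaenoic acid, in the same volume of PBS at a strength that the labels write as 5 um. DSS injures the colon epithelium and was given to both groups, so that no colon without colitis enters the comparison. The labels number the colons without stating that each came from its own animal. Were animals shared, the p-values would reflect no more than the variation among libraries.

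In the gut wall, fibroblasts fall into kinds that are known from their position and their genes. Pdgfra-high cells lie under the epithelium and make BMP and WNT ligands, Cd81-positive cells near the crypt base make Grem1 and other factors that sustain stem cells, and Pi16-positive, Cd34-positive cells lie in the adventitia around vessels and in deep connective tissue. Cd34 is also carried by endothelial cells, Pdgfrb by pericytes, Thy1 by T cells and neurons in the mouse, and Cd81 by most cells, so none of these genes alone is the property of fibroblasts in whole tissue. In bulk samples fewer cells of a type and less RNA per cell cannot be told apart.

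Depth ran from 50915365 counts (4-HDHA replicate 1) to 66470519 counts (4-HDHA replicate 5). Levels are given in CPM, counts scaled to the size of the library with TMM factors, for comparison between libraries, and in FPKM, the authors' values per kilobase of gene model, for comparison between genes. A positive log2 fold change means a higher level with 4-HDHA, and SE is its standard error. By edgeR's quasi-likelihood test with Benjamini-Hochberg adjustment, 0 of 19615 genes (0%) passed 0.05, the smallest adjusted p was 0.283, and the median log2 fold change of all genes was 0.01. All 20 broad fibroblast genes and all 11 epithelial and colon genes listed were measured above the filter. Scarce genes pass it too at this depth, so passing does not by itself show how much of a cell type was present.

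None of the 10 identity genes passed the adjusted threshold, and 5 of them, Pi16, Thy1, Cd34, Dpt and Twist1, were higher with 4-HDHA at an unadjusted p under 0.05, where 7.39% of all genes tested were. Pi16 had the largest log2 fold change of the 10, 2.24, with a mean of 28.2 CPM against 5.98 CPM. None was lower at that threshold (7.45% of all genes), and none had groups that did not overlap (1.16% of all genes with every 4-HDHA library higher, 1.63% with every one lower). Pdgfra, Pdgfrb, Cd81 and Tcf21 had log2 fold changes between 0.07 and 0.20, and Cd55b, close to its lower limit of detection in 1 library, had an interval from -1.57 to 2.20. The median log2 fold change of the 10 was 0.60, and 10 of 10 were positive, against 51% of all genes. Without 4-HDHA replicate 4, the library in which 9 of the 10 were highest, 6 of 10 were positive (52.2% of all genes), 3 of 10 (Pi16, Thy1 and Cd34) were higher at an unadjusted p under 0.05 (4.74%), and the median was 0.38. The count was also 3 without PBS replicate 4 (4.37% of all genes) and without PBS replicate 3 (6.21%).

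**Figure D1:**
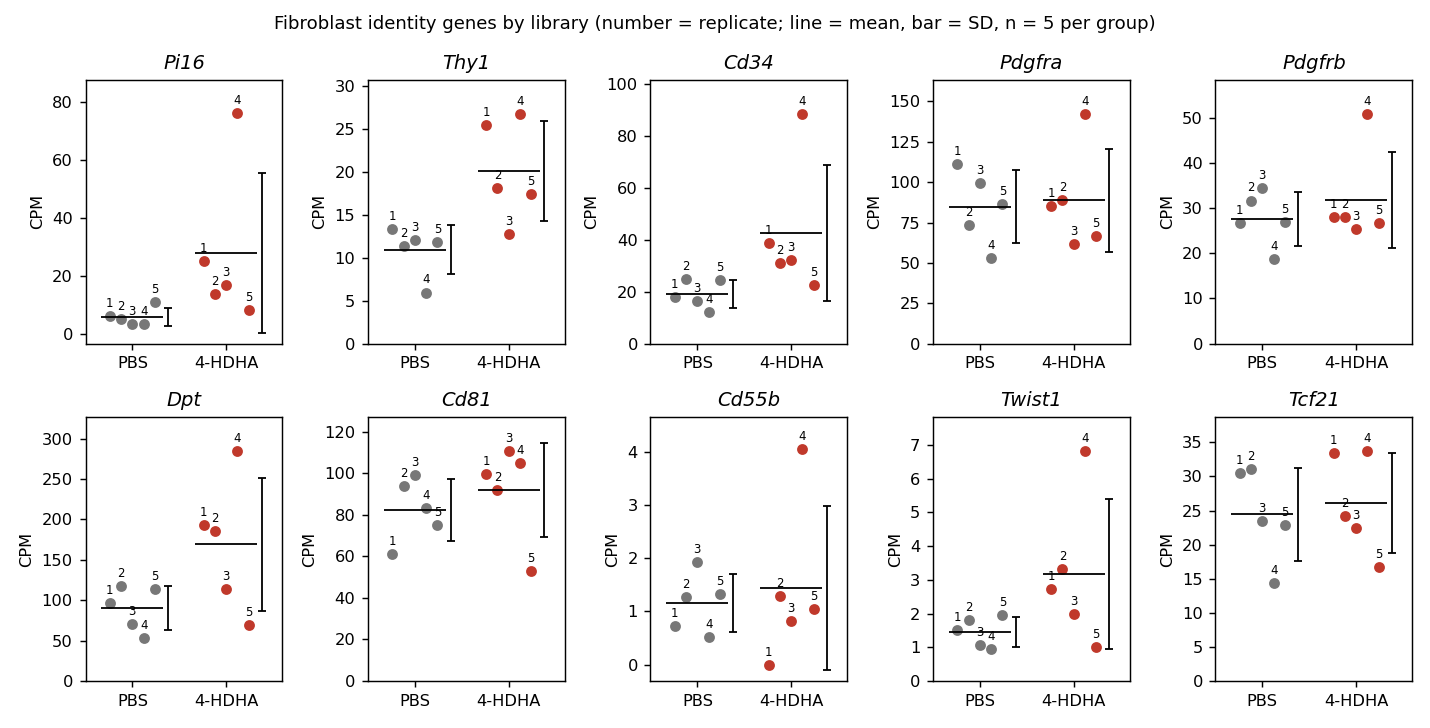
CPM of each of the 10 fibroblast identity genes in each library, grey for PBS and red for 4-HDHA, with the replicate number beside each point, a line at the mean and a bar of 1 SD to its right (n = 5 per group). In 9 of the 10 panels 4-HDHA replicate 4 is the highest point. In Pi16, Thy1, Cd34 and Twist1 4 of the 5 libraries with 4-HDHA lie above every library with PBS, a pattern not counted over all genes.

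Pi16 (chromosome 17, 29317680 to 29330593, plus strand, mm10) encodes peptidase inhibitor 16, which marks adventitial fibroblasts. Its level in PBS replicates 1 to 5 was 6.31, 5.21, 3.47, 3.67 and 11.3 CPM. With 4-HDHA it was 25.4, 13.8, 17.1, 76.4 and 8.59 CPM in replicates 1 to 5. Replicate 4 of the 4-HDHA group stood far above the rest, and the groups overlapped only through 4-HDHA replicate 5, which lay below PBS replicate 5. The mean was 5.98 ± 3.17 CPM (SD, n = 5) with PBS and 28.2 ± 27.6 CPM with 4-HDHA, or 16.2 ± 7.04 CPM without replicate 4. The log2 fold change was 2.24 (SE 0.59, 95% interval 0.94 to 3.54), above those of 99.6% of genes tested, with an unadjusted p of 0.00299 and an adjusted p of 0.291 by edgeR. DESeq2 gave an adjusted p of 0.00871, and Pi16 was the 1 identity gene that DESeq2 called, where it called 0.97% of its 20730 genes as higher with 4-HDHA and 1.49% in either direction. That call was lost without PBS replicate 4 (DESeq2 adjusted p = 0.0609) and without 4-HDHA replicate 4 (0.0886), and over the 10 libraries left out in turn the adjusted p ran from 0.000482 to 0.0886. In edgeR the log2 fold change ran from 1.44 without 4-HDHA replicate 4 to 2.60 without PBS replicate 5.

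Cd34 (chromosome 1, 194938819 to 194961279, plus strand) encodes a sialomucin of the cell surface that adventitial fibroblasts and endothelial cells carry. PBS replicates 1 to 5 had 17.8, 24.9, 16.2, 12.1 and 24.4 CPM of it. In the 4-HDHA libraries, in the same order, it stood at 38.9, 31.2, 32.1, 88.6 and 22.5 CPM. All of these but replicate 5 exceeded every library with PBS, and replicate 4 was again set apart. The mean was 19.1 ± 5.49 CPM (SD, n = 5) with PBS and 42.6 ± 26.3 CPM with 4-HDHA, or 31.2 ± 6.69 CPM without replicate 4. This is a log2 fold change of 1.16 (SE 0.36, 95% interval 0.37 to 1.95; unadjusted p = 0.00790, adjusted p = 0.297 by edgeR), and 0.72 without 4-HDHA replicate 4.

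Dpt (chromosome 1, 164796644 to 164824266, plus strand) encodes dermatopontin, a small matrix protein that binds decorin and is made by fibroblasts of many tissues in the mouse. It reached 96.5, 117, 69.9, 53.6 and 114 CPM in the PBS libraries. With 4-HDHA the values were 194, 186, 114, 284 and 69.6 CPM. Replicates 1, 2 and 4 lay above every PBS library, replicate 3 among the highest of them and replicate 5 among the lowest, so the groups overlapped. Its log2 fold change was 0.91 (SE 0.35, 95% interval 0.13 to 1.68; unadjusted p = 0.0255, adjusted p = 0.311 by edgeR), and the change ran from 0.64 without 4-HDHA replicate 4, with an unadjusted p of 0.0742, to 1.10 without 4-HDHA replicate 5.

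Thy1 (chromosome 9, 44043384 to 44048579, plus strand) encodes a glycoprotein anchored in the membrane by a lipid, also called CD90. The PBS libraries held 13.4, 11.4, 12.0, 5.94 and 11.9 CPM of it, 4 of them close together and replicate 4 well below. The 4-HDHA libraries held 25.4, 18.2, 12.8, 26.7 and 17.4 CPM, of which only replicate 3 lay below the highest PBS library. The mean was 10.9 ± 2.88 CPM (SD, n = 5) with PBS and 20.1 ± 5.84 CPM with 4-HDHA, a log2 fold change of 0.88 (SE 0.26, 95% interval 0.32 to 1.44; unadjusted p = 0.00567, adjusted p = 0.295 by edgeR). It moved least of the 5 when single libraries were left out, between 0.72 without PBS replicate 4 and 1.00 without 4-HDHA replicate 3. T cell genes, in whose cells Thy1 is also known, summed to between 21.8 and 41.8 CPM with PBS and between 20.6 and 82.3 CPM with 4-HDHA. Their highest sum fell in 4-HDHA replicate 5, where Thy1 was at 17.4 CPM, above every PBS library and below 4-HDHA replicates 1, 2 and 4. Of the 8 T cell genes, 0 differed at an unadjusted p under 0.05 in either direction, where 14.8% of all genes did. All 8 were positive (51% of all genes), with a median log2 fold change of 0.26. Without 4-HDHA replicate 5, 0 of 8 were positive and the median was -0.29, and the log2 fold change of Thy1 was 0.93. With the mean of smooth muscle genes as a covariate 3 of 8 T cell genes were higher at that threshold (4.79% of all genes), and Thy1, at 0.80, was too. The part of T cells in the level of Thy1 was not tested.

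Twist1 (chromosome 12, 33957671 to 33959829, plus strand) and Tcf21 (chromosome 10, 22817281 to 22820174, minus strand) encode transcription factors of the basic helix-loop-helix (bHLH) class, which bind the E-box, CANNTG, as dimers with E proteins. Twist1 was the scarcer, with 54 to 390 counts in a library. It stood at 1.51, 1.82, 1.05, 0.936 and 1.95 CPM with PBS, and at 2.74, 3.33, 1.98, 6.81 and 0.994 CPM with 4-HDHA. Replicates 1 to 4 of the 4-HDHA group were above every PBS library, replicate 3 by a narrow margin, and replicate 5 was among the lowest of all. Twist1 had a log2 fold change of 1.12 (SE 0.46, 95% interval 0.12 to 2.13; unadjusted p = 0.0320, adjusted p = 0.315 by edgeR), and 0.64 with an unadjusted p of 0.114 without 4-HDHA replicate 4. Tcf21, which marks fibroblast progenitors in the mouse embryo, had 30.5, 31.1, 23.4, 14.3 and 22.9 CPM with PBS. In the 4-HDHA group it had 33.5, 24.1, 22.5, 33.7 and 16.7 CPM, within nearly the same span. Its log2 fold change was 0.09 (SE 0.25, 95% interval -0.45 to 0.63; adjusted p = 0.871 by edgeR), and its sign turned without PBS replicate 4 (-0.05).

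A list of 11 other genes of the bHLH network held the E proteins, the Id inhibitors that keep E proteins from DNA, and relatives of Twist1. Of these 2 were higher at an unadjusted p under 0.05 (18.2%, against 7.39% of all genes) and 0 were lower. The median log2 fold change was 0.31. Without 4-HDHA replicate 4 the median was 0.014 and 1 was higher, and with each other library left out 1 to 3 were. The genes were Id4, with a log2 fold change of 1.16 (unadjusted p = 0.0100), and Id2, with 0.45. Id4 was between 4.15 and 12.8 CPM with PBS and between 6.90 and 21.9 CPM with 4-HDHA. There 4 of 5 libraries were above every PBS library, a pattern not counted over all genes.

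The promoters of Dpt, Cd34 and Twist1, whose levels went together across libraries as given below, and of Pdgfra, which had no such difference between groups, are shown for the E-box to which Twist1 and Tcf21 bind. Each is 230 bases upstream of the RefSeq start on GRCm38.p6, 5′ to 3′ on the gene's strand, with each E-box (CANNTG, which reads the same pattern on both strands) in capitals. They lie at chr1:164796413-164796642, chr1:194938571-194938800, chr12:33957421-33957650 and chr5:75152001-75152230, all on the plus strand.
Dpt: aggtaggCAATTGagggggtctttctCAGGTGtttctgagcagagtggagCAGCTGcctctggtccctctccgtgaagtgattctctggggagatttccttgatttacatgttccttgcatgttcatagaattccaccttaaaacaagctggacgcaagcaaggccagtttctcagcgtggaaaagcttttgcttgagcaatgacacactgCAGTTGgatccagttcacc
Cd34: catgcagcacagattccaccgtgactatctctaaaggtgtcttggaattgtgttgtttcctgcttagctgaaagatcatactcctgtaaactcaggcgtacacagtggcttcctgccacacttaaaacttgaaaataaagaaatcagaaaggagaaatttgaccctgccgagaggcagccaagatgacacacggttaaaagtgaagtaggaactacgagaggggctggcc
Twist1: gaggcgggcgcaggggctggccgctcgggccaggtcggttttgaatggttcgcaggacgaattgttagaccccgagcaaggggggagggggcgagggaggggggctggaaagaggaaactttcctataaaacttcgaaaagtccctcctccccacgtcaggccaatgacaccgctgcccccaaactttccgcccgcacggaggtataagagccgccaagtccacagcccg
Pdgfra: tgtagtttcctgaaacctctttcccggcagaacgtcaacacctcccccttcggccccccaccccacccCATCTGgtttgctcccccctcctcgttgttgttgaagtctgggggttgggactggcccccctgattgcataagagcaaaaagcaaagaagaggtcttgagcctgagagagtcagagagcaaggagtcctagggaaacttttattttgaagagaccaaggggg
The Dpt window held 4 E-boxes, that of Pdgfra 1, and those of Cd34 and Twist1 0. Of the 8 identity genes with an entry in the promoter table, 4 had an E-box in the window, and 63.5% of 32522 windows of that length had one. The windows of Pi16 and Tcf21, both without an E-box, overlap GENCODE exons of the same gene and so are not wholly upstream of it. The 1 CAGCTG of Dpt is a form found in 11.9% of windows, and the window of Cd81 held 1 too. The CATCTG of Pdgfra, read on either strand, is a form found in 13.5% of windows. A match to these letters describes the sequence and does not show binding.

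Pdgfra (chromosome 5, 75152292 to 75198215, plus strand) and Pdgfrb (chromosome 18, 61045150 to 61085061, plus strand) encode the receptor tyrosine kinases for platelet-derived growth factors, Pdgfra the main one on gut fibroblasts and Pdgfrb shared with pericytes. Pdgfra stood at 111, 73.7, 99.3, 53.0 and 86.7 CPM with PBS. It was at 85.2, 88.9, 61.7, 142 and 66.4 CPM with 4-HDHA, and apart from replicate 4 no library of that group exceeded the highest of the other. Pdgfra had a log2 fold change of 0.07 (SE 0.25, 95% interval -0.49 to 0.62; adjusted p = 0.913 by edgeR), and -0.15 without 4-HDHA replicate 4. Pdgfrb had 26.6, 31.7, 34.4, 18.7 and 26.9 CPM with PBS, and 28.1, 28.0, 25.4, 50.8 and 26.6 CPM with 4-HDHA. Its 4 other 4-HDHA libraries lay within 3 CPM of one another while replicate 4 was far above them. For Pdgfrb the log2 fold change was 0.20 (SE 0.22, 95% interval -0.29 to 0.69; adjusted p = 0.661 by edgeR), and -0.011 without that library. The intervals leave room for a difference of up to 0.62 and 0.69 on the log2 scale, so equal levels are not shown.

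All 4 PDGF ligands had positive log2 fold changes (51% of all genes did), with a median of 0.49. Of them 1, Pdgfd, a ligand of Pdgfrb, was higher at an unadjusted p under 0.05, where 7.39% of all genes were. Its log2 fold change was 0.81 (unadjusted p = 0.0224 by edgeR). Pdgfd was at 12.1, 8.51, 4.91, 3.80 and 10.1 CPM with PBS and at 14.4, 14.8, 11.1, 17.5 and 11.5 CPM with 4-HDHA, overlapping through PBS replicate 1. Without 4-HDHA replicate 4, 0 of the 4 ligands were higher at that threshold, and 2 were without PBS replicate 5 or 4-HDHA replicate 3. Pericyte genes, of which Pdgfrb is also a marker, had 1 of 8 higher (12.5%, against 7.39% of all genes) and a median of 0.59. The count was 0 without PBS replicate 1 or 4-HDHA replicate 4, was 2 and 3 when PBS replicate 2 or 4-HDHA replicate 5, respectively, was left out, and the median was 0.18 with the smooth muscle covariate.

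Cd81 (chromosome 7, 143052739 to 143067934, plus strand) encodes a tetraspanin, a membrane protein that organises receptors into patches. PBS libraries had 61.4, 93.7, 99.1, 83.1 and 75.3 CPM and 4-HDHA libraries had 99.7, 91.9, 111, 105 and 53.1 CPM. It was the 1 identity gene whose highest library was 4-HDHA replicate 3, and its lowest was 4-HDHA replicate 5. Its log2 fold change was 0.16 (SE 0.20, 95% interval -0.28 to 0.59; adjusted p = 0.704 by edgeR). Of 7 other tetraspanins 1 (14.3%) was higher at an unadjusted p under 0.05, where 7.39% of all genes were. It was Cd37, a leukocyte tetraspanin at 111 CPM in 4-HDHA replicate 5 and between 4.65 and 14.8 CPM in the other 9 libraries. Without 4-HDHA replicate 5, PBS replicate 2 or PBS replicate 4, 0 of the 7 were higher, and 2 were without PBS replicate 5 or 4-HDHA replicate 3.

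Cd55b (chromosome 1, 130388537 to 130423009, minus strand) is the second mouse copy of the gene for decay-accelerating factor, which protects cells from complement. It was the scarcest, with counts from 0 to 232. With PBS it was at 0.735, 1.27, 1.92, 0.520 and 1.33 CPM. With 4-HDHA it was at 0, 1.29, 0.814, 4.05 and 1.04 CPM, so both the highest and the lowest library were in that group. The fitted log2 fold change was 0.31 (SE 0.86; adjusted p = 0.876 by edgeR), while the difference of mean log2 CPM had the opposite sign (-0.63; exact two-sided permutation p = 0.770). Cd55, the main copy, had 2969 to 14963 counts, and Cd55b amounted to 0.622% to 1.57% of it with PBS and 0% to 1.55% with 4-HDHA. Of the 1322 stretches of 100 bases in Cd55b transcripts 167 (12.6%) also occur in Cd55, so the split of reads between the copies is uncertain. The log2 fold change of Cd55 was 0.44.

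Exact two-sided permutation of the mean log2 CPM over the 252 assignments of libraries, whose smallest possible p is 0.00794, gave p = 0.0159 for Pi16 (difference 1.93) and for Thy1 (0.88). For Cd34 (1.04) the exact permutation p was 0.0238. For Dpt (0.81) and Twist1 (0.89) the exact permutation p was 0.103, and for Pdgfra, Pdgfrb, Cd81 and Tcf21 it lay between 0.540 and 0.873. These p-values are for single genes and are not adjusted for the 10 tested. Pi16, Thy1 and Cd34 kept an unadjusted edgeR p under 0.05 with each of the 10 libraries left out in turn, at most 0.00889, 0.0168 and 0.0205.

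**Figure D2:**
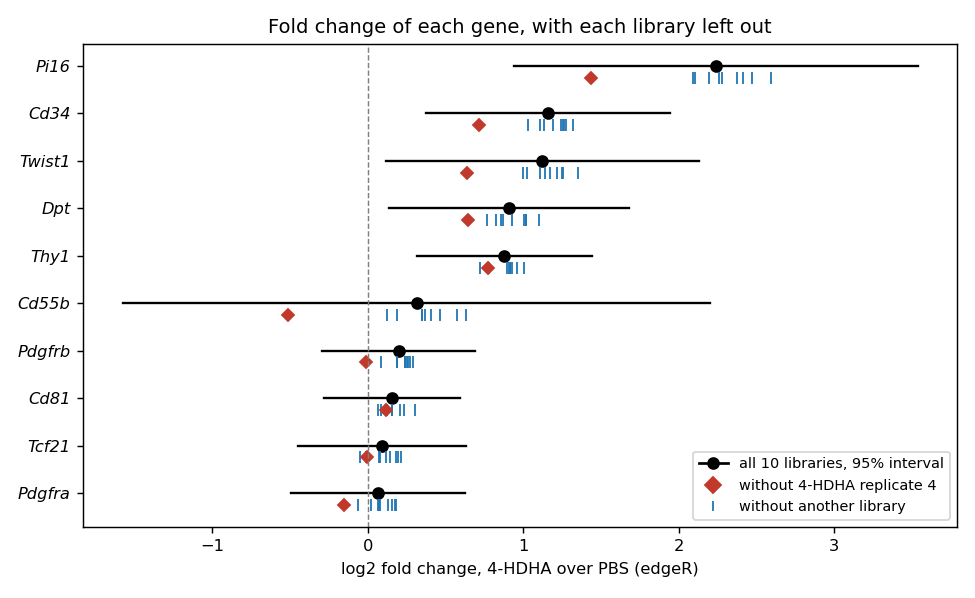
Log2 fold change of 4-HDHA over PBS for each fibroblast identity gene by edgeR, with the 95% interval as a line, a diamond for the value without 4-HDHA replicate 4 and ticks for the values without each other library. Intervals of Pi16, Thy1, Cd34, Dpt and Twist1 lie above 0, and those of Pdgfra, Pdgfrb, Cd81, Tcf21 and Cd55b cross it.

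Per length of gene, Dpt was the most abundant of the 10, with a mean of 67.1 FPKM over all libraries, followed by Cd81 (27.4 FPKM), Tcf21 (9.60), Pdgfra (7.72), Pdgfrb (4.87), Thy1 (4.59), Cd34 (3.78), Pi16 (2.40), Twist1 (1.26) and Cd55b (0.698 FPKM). From Dpt down to Pdgfrb each gene exceeded the next in 10 of 10 libraries. Pdgfrb exceeded Thy1 in 7 of 10, so these neighbours were not kept apart in every library. Cd34 exceeded Pi16 in 10 of 10. Thy1 exceeded Cd34, Pi16 exceeded Twist1, and Twist1 exceeded Cd55b in 8 of 10 each, so the order of these 3 pairs also varied with the library. Pi16 was at 0.816 ± 0.366 FPKM (SD, n = 5) with PBS, about the level of Twist1 (0.787 ± 0.225 FPKM), and at 3.98 ± 3.93 FPKM with 4-HDHA, where Twist1 had 1.74 ± 1.23 FPKM.

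To see the genes against a fibroblast gene with little difference between groups, each was divided by Pdgfra in the same library, a comparison chosen after the values were seen and given as a description. Thy1 per Pdgfra in CPM lay between 0.112 and 0.155 with PBS, a mean of 0.129 ± 0.017 (SD, n = 5), and between 0.188 and 0.298 with 4-HDHA, a mean of 0.232 ± 0.0465. All 5 libraries with 4-HDHA were thus above all 5 with PBS, as were those of 0.928% of the other genes tested when divided by Pdgfra. Cd34 per Pdgfra had a mean of 0.234 ± 0.0765 with PBS and 0.458 ± 0.119 with 4-HDHA and was separated by the narrowest of margins, between PBS replicate 2 (0.3374) and 4-HDHA replicate 5 (0.3395). Pi16 per Pdgfra missed separation by as little, PBS replicate 5 (0.1298) lying just above 4-HDHA replicate 5 (0.1294). Dpt and Twist1 overlapped between groups. The ratios of Pdgfrb (means 0.336 and 0.363), Tcf21 (0.293 and 0.303) and Cd81 (1.05 and 1.11) were close in both groups.

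**Figure D3:**
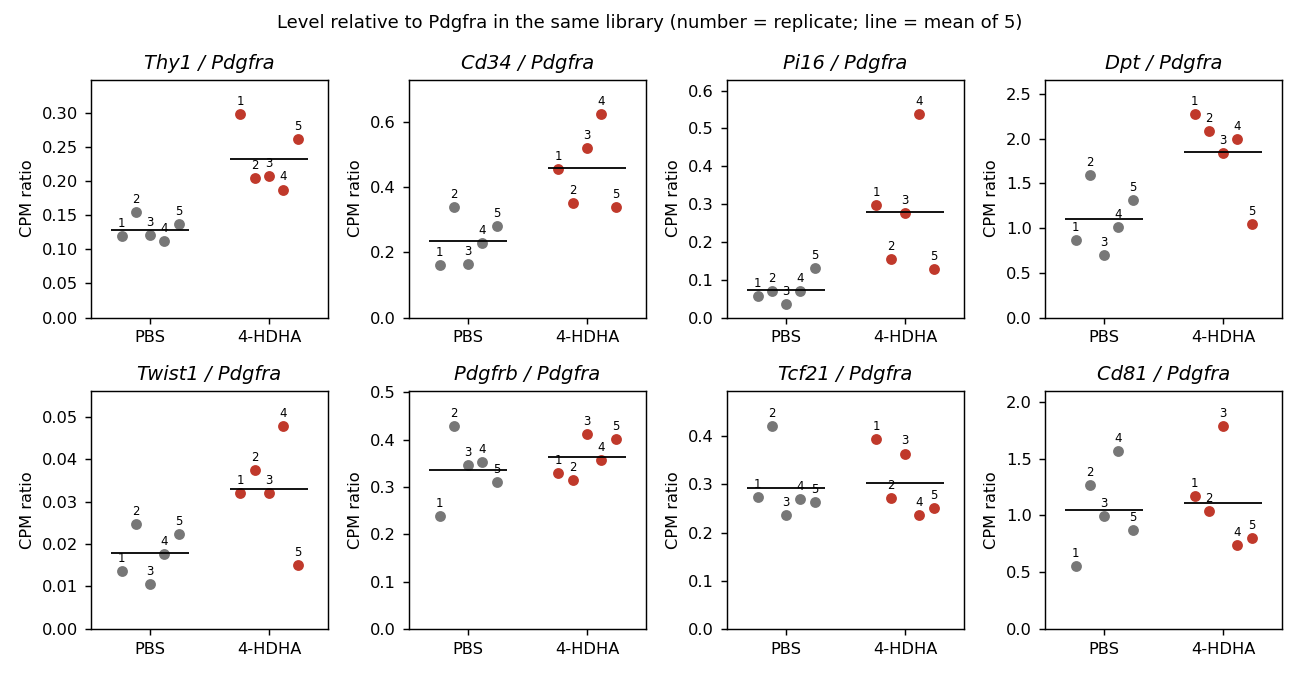
Level of 8 fibroblast identity genes divided by that of Pdgfra in the same library (CPM ratio, linear axis from 0), with the replicate number beside each point and a line at the mean, grey for PBS and red for 4-HDHA (n = 5 per group). The groups separate for Thy1 (0.112 to 0.155 against 0.188 to 0.298) and, narrowly, for Cd34, and overlap for the others drawn.

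Part of the spread was shared by the genes. In 4-HDHA replicate 4 the identity genes had a median of 1.10 on the log2 scale above their mean over libraries, and in PBS replicate 4, which was lowest in 7 of 10, a median of -0.87. Deviations from the group mean in log2 CPM over the 10 libraries were closest between Dpt and Twist1 (Pearson r = 0.967), Pi16 and Cd34 (0.920) and Cd34 and Twist1 (0.912). Without 4-HDHA replicate 4 these were 0.974, 0.799 and 0.827. Thy1 went most closely with Pdgfra (0.861, and 0.865 without that library). Cd81, with a median r of 0.324 to the other identity genes, and Cd55b, with 0.159, stood aside. The libraries differed in depth and in the sums of smooth muscle and adipocyte genes, and the part of tissue composition in these correlations was not tested. Cd55b is measured with few counts.

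**Figure D4:**
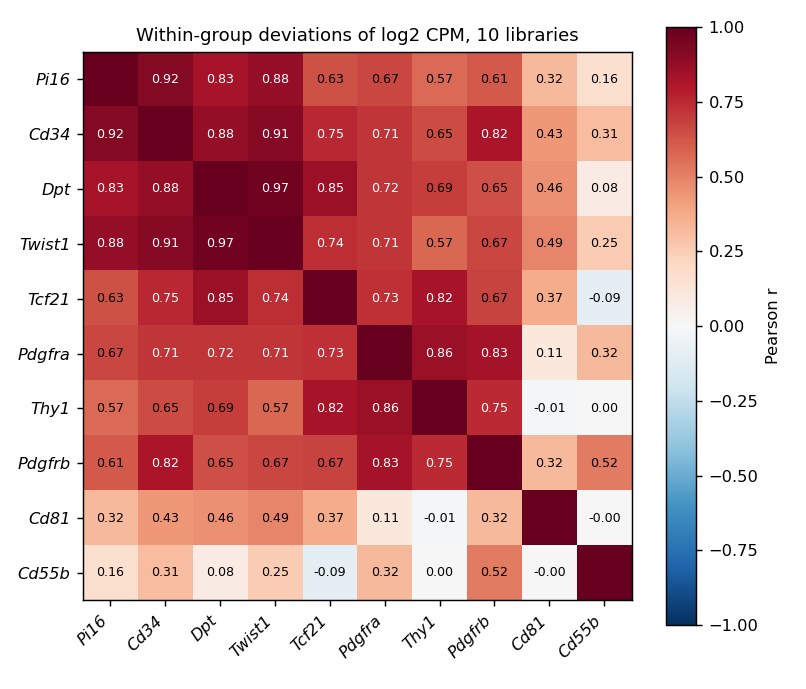
Pearson r between each pair of fibroblast identity genes, from log2 CPM after subtracting the group mean, over 10 libraries, from blue (-1) to red (1). Pi16, Cd34, Dpt and Twist1 form the darkest block, with r from 0.83 to 0.97, and the rows of Cd81 and Cd55b are pale.

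Ranked in the same way among 15485 genes with at least 1 CPM on average, the genes most like Pi16 were Cadm1 (r = 0.966) and Adamts19 (0.952), and those most like Thy1 were Arl11 (0.984) and Tgfbr2 (0.971). Dpt was nearest to Ppp1r14a (0.983) and Lum (0.980), the latter the gene of the matrix proteoglycan lumican. Twist1 was nearest to Zmynd11 (0.988) and Serpinf1 (0.984), and Cd34 to Eid2b and Mmp23 (0.975 each). For Pdgfra these were Slc43a3 and Gem (0.976 each), and for Pdgfrb Cdh5 (0.974), the cadherin of endothelial cells, and Gprc5b (0.972). Tcf21 was nearest to Ctnna2 (0.967) and Tmem273 (0.963), Cd81 to Znrd1as and Ankrd13b (0.982 each), and Cd55b to Pla2g4b (0.920) and Mctp1 (0.917). The highest of 15485 values over 10 libraries is high for any gene, and these are a description only.

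Other genes of fibroblasts were read from lists for each kind. Of 20 broad fibroblast genes, mainly of the matrix, 6 (30%) were higher and 0 lower with 4-HDHA at an unadjusted p under 0.05. Of all genes tested 7.39% were higher and 7.45% lower. Of the 20, 19 had a positive log2 fold change, against 51% of all genes, and the median was 0.58. Those 6 were Dcn (decorin, log2 fold change 1.00), Lum (0.98), Fbln2 (0.94), Gsn (0.83), Vim (0.68) and Fap (0.60). Of 12 adventitial genes, the company in which Pi16 is known, 6 were higher and 0 lower, with a median of 0.45. Of the 12, 8 had a positive log2 fold change and 4 a negative one. Igfbp6, which binds insulin-like growth factors, had a log2 fold change of 1.84 (unadjusted p = 0.00921), Cd248, the gene of endosialin, 1.57 (0.0156), and Mfap5, of the microfibrils, 1.29 (0.0256). Igfbp6 was at 2.84, 6.06, 2.33, 2.60 and 12.7 CPM with PBS and at 18.4, 18.5, 17.0, 36.4 and 5.03 CPM with 4-HDHA, with 4-HDHA replicate 5 as the only library of its group below the highest with PBS, as for Pi16. Clec3b (1.46), Col14a1 (1.22) and Efemp1 (0.67) were the others. The negative values were those of Dpp4 (-0.21), Anxa3 (-0.087), Procr (-0.074) and Ly6a (-0.028). Without 4-HDHA replicate 4, 2 of the 20 broad (10%) and 1 of the 12 adventitial genes (8.33%) were higher at that threshold, against 4.74% of all genes. The medians were then 0.20 and 0.30. Without PBS replicate 4 these counts were 2 and 3 (10% and 25%), against 4.37% of all genes. With 4-HDHA replicate 2 left out 3 of the 20 broad genes (15%) were higher, against 5.2% of all genes.

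Of 7 trophocyte genes, which belong to the Cd81-positive cells near the crypts, 1 (14.3%) was higher, C3 of complement (log2 fold change 0.73). Of all genes 7.39% were, and a single gene of so short a list is not set apart from that share. The median was 0.14 and Grem1 had -0.24. No trophocyte gene was higher when PBS replicate 1, 2 or 4, or replicate 2 or 4 of the 4-HDHA group, was left out, or with the scaling of DESeq2 in edgeR, and the median ran from 0.069 without PBS replicate 4 to 0.36 without PBS replicate 2. Of 10 genes of subepithelial fibroblasts 0 were higher and 1 was lower (7.45% of all genes were), Bmp5 (-0.35, unadjusted p = 0.0379 by edgeR). Their median was -0.09, with 3 positive values. With a library left out, 0 or 1 of them were higher, 0 to 2 lower, and the median lay between -0.15 and 0.014. Among 12 genes of activated fibroblasts in inflamed gut 0 passed in either direction, 6 were positive and the median was 0.04. That median rested on single libraries: it was -0.67 without 4-HDHA replicate 4, where 1 gene was lower, and 0.59 without PBS replicate 3, and 1 gene was higher without PBS replicate 2 or 4-HDHA replicate 1, 3 or 5. The 2 genes of Pdgfra-positive cells of the muscle layer had a median of 0.13, with neither past the threshold. Differences between these lists were not tested.

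**Figure D5:**
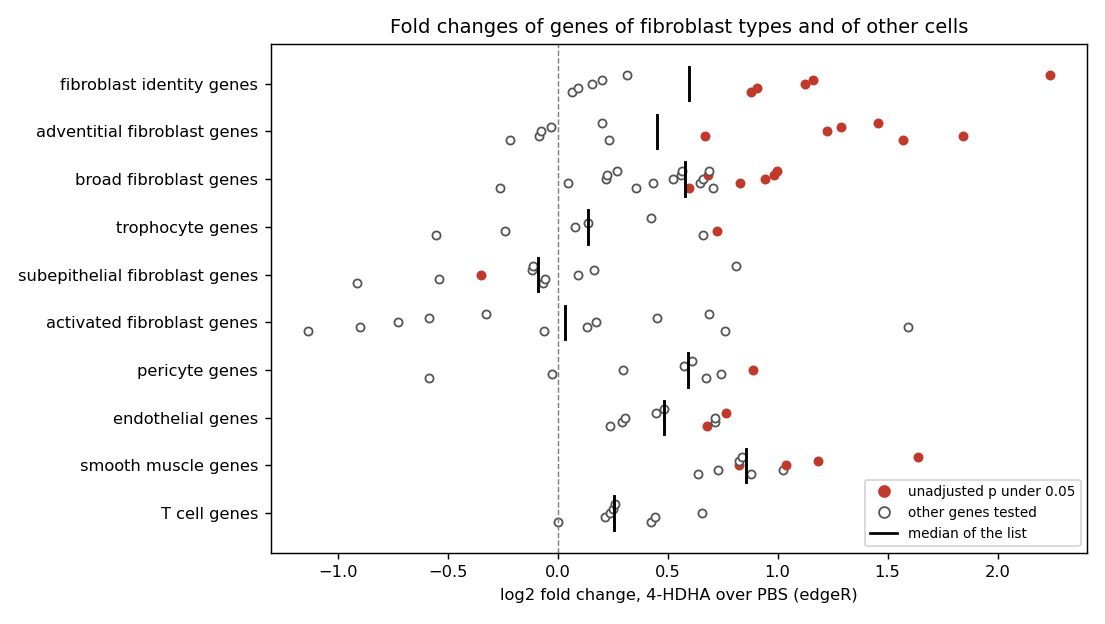
Log2 fold changes of 4-HDHA over PBS for every tested gene of 10 lists, 1 point per gene, filled where the unadjusted p was under 0.05, with a line at the median of each list. Medians are 0.60 for the 10 identity genes, 0.58 for broad and 0.45 for adventitial fibroblast genes, 0.14 for trophocyte and -0.09 for subepithelial genes, and 0.86 for smooth muscle genes.

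Markers of other cells of the colon wall differed between the same libraries. For the counts that follow, 7.39% of all genes were higher and 7.45% lower at an unadjusted p under 0.05, and 51% were positive. Adipocyte genes, whose cells lie beside adventitial fibroblasts in fat around the bowel, were higher in 6 of 7 at an unadjusted p under 0.05 with a median log2 fold change of 2.95. They summed to between 25.1 and 38.6 CPM with PBS and between 42.0 and 217 CPM with 4-HDHA, the groups not overlapping, and 3 of the 7 were separated on their own, where 1.16% of all genes were. Smooth muscle genes were higher in 4 of 10 with a median of 0.86, a count that was 1 without 4-HDHA replicate 4 and 9 without 4-HDHA replicate 5, and their sums, 1103 to 5234 CPM and 1491 to 8370 CPM, overlapped. With the mean of smooth muscle genes as a covariate 2 identity genes, Pi16 (1.52) and Thy1 (0.80), kept an unadjusted p under 0.05, against 4.79% of all genes, and the median of the 10 was 0.34. With the same covariate 0 of 20 broad fibroblast genes, 1 of 12 adventitial and 3 of 7 adipocyte genes were higher at that threshold. Endothelial genes, which share Cd34, were higher in 2 of 9, Pecam1 (0.68, unadjusted p = 0.00632) and Tek (0.77), or 4 without PBS replicate 3 or 4-HDHA replicate 3 or 5, with 9 of 9 positive and sums of 64.3 to 113 CPM and 97.9 to 186 CPM. Mesothelial genes were higher in 1 of 7 with sums of 3.45 to 19.2 CPM and 4.38 to 17.8 CPM, and genes of enteric neurons and glia in 2 of 10. The mesothelial count ran from 0 to 2 with a library left out. That of neurons and glia was 5 without 4-HDHA replicate 5, 1 when PBS replicate 3, 4 or 5, or replicate 1 or 4 of the 4-HDHA group, was left out, and 0 with the smooth muscle covariate. Of 11 epithelial and colon genes 0 were higher and 2 lower, with sums of 10474 to 18796 CPM and 10740 to 17377 CPM. The pieces of colon sampled may have differed in their share of fat, vessel or muscle. The part of this in the values of Pi16, Thy1, Cd34, Dpt and Twist1 was not tested. The smooth muscle covariate is no such test, since all 10 smooth muscle genes had positive log2 fold changes themselves. Adipocyte sums did not overlap between groups, so the share of fat and the treatment cannot be told apart here.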

How the data were processed

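Poly(A) RNA of whole colon was sequenced from strand-marked libraries, per the labels' protocols. The build is mm10 and the tools are edgeR, DESeq2, StringTie 1.3.4d, HISAT2 2.0.4 and cutadapt 1.9, per the submitters' processing notes; their order, their settings and any use of strand in counting were not given in the sources used here. Pi16, Cd34, Pdgfra, Cd81 and Cd55b overlap exons of a gene on the opposite strand, whose reads could then be counted with them. The authors deposited whole-number read counts for 55401 genes, not normalized, and a table with gene names, positions and FPKM; counts repeated there differed in 0 cells. All 10 identity genes matched GENCODE M21 by identifier, symbol and position.

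Groups were compared on the counts in R 4.3.3 by edgeR 4.0.16 (TMM, filterByExpr, robust quasi-likelihood F test, no covariates, Benjamini-Hochberg adjustment over 19615 genes at 0.05). CPM were computed from the counts with a prior count of 2 where logarithms were taken. A gene counts as separated where all 5 values of one group exceed all 5 of the other. Alternatives were DESeq2 1.42.0, limma 3.58.1 (voom, and log2 of FPKM plus 1 or 0.1), other scalings and filters, a smooth muscle covariate, a replicate block and each library left out. On simulated counts for this comparison (19615 genes), edgeR recovered 38 of 100 genes changed 2-fold and 79 of 100 changed 4-fold with 6 false calls. DESeq2 recovered 63 and 94 with 70 false calls. Counts were drawn gene by gene with the spread that edgeR fitted to each gene, and changed genes had a mean of at least 1 CPM. Differences shared by many genes of a library were not simulated. The smallest chi-square per degree of freedom between libraries was 34.0, so none was a repeat. The identity genes and all lists were chosen with earlier results of these data known. Named are all 10 identity genes, up to 3 genes with the smallest p of each other list at 1 CPM or more, and the 2 genes most like each; further list genes were named after their values were seen. Promoters come from RefSeq.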

Additional observations from a re-analysis of the deposited data

Results flagged for a closer look

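Among the 20 groups of 5 libraries formed by the 10 identity genes, 4 held a library whose gap to its nearest neighbour took up more than 0.71 of the group's range. For normally distributed values chance gives about 1 in 20 groups. The rule was applied to CPM without logarithms, for which that rate was not tested. Pi16 was at 76.4 CPM in 4-HDHA replicate 4, with a gap of 0.752 of the range, Cd34 at 88.6 CPM (0.753) and Pdgfrb at 50.8 CPM (0.893) in the same library. Thy1 was at 5.94 CPM in PBS replicate 4, a gap of 0.736 of the range. As 3 of the 4 fall in 1 library, they are not independent of each other.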

How the results depend on the processing

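No identity gene passed the adjusted threshold in any edgeR or limma fit. At an unadjusted p under 0.05, 5 were higher in the edgeR fit reported, where 7.39% of all genes were. DESeq2 called 308 genes (1.49% of those it tested) and 1 identity gene, Pi16. Chosen after seeing the data, with a library left out it called 73 (without 4-HDHA replicate 4) to 1190 genes (without 4-HDHA replicate 5). The identity genes it then called were 0 (without replicate 4 of either group) to 5 (without 4-HDHA replicate 5, among the 1190 genes called). The shares of all genes tested in these fits are not given here. In simulated data DESeq2 made 70 false calls and edgeR 6. Those counts were drawn with the spread that edgeR fitted, so they do not settle which tool is right for Pi16.

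Signs turned in 5 identity genes, none of them at an unadjusted p under 0.05 in the fit reported, and the cause was not tested. For Cd55b the log2 fold change was -1.52 with voom and -0.20 with log2(FPKM + 0.1), and the difference of means was 0.042 with log2(FPKM + 1). With the smooth muscle covariate Cd81 had -0.040 and Tcf21 -0.16. With a library left out, log2 fold changes ran from -0.15 to 0.18 for Pdgfra, -0.011 to 0.29 for Pdgfrb, -0.050 to 0.22 for Tcf21 and -0.51 to 0.63 for Cd55b, and differences of mean log2 CPM from -0.12 to 0.16 for Pdgfra, -0.084 to 0.25 for Tcf21 and -1.24 to 0.46 for Cd55b.

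The replicate numbers are not stated to pair the samples. Correlations of same-numbered libraries, from deviations from the group mean, were 0.013, 0.084, 0.077, -0.316 and -0.003. Low values cannot exclude pairing, since paired samples may share little of their variation. With the replicate block 0 genes passed the adjusted threshold. At an unadjusted p under 0.05, 874 genes (4.46%) were higher and 1563 lower, and 3 identity genes (Pi16, Thy1 and Cd34) were higher. The median of the 10 identity genes was 0.49, and Cd55b had -0.48. With the block 1 of 20 broad fibroblast genes, 1 of 12 adventitial genes and 0 of 10 genes of enteric neurons and glia were higher at an unadjusted p under 0.05. At this depth and with 5 libraries a group, 38 of 100 simulated 2-fold differences were recovered by edgeR, so others of that size can be missed.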
